A study of Mus musculus with 12 samples.

Results

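The Hox genes, the transcription factors that mark position along the body, were read on 12 Affymetrix MOE430 2.0 arrays. The RNA came from mouse embryonic fibroblasts (MEFs), the connective tissue cells that spread from a dissociated embryo in culture. Members are all genes whose array symbol is Hox, then a, b, c or d, then a number, and where several probe sets name a gene, the brightest on average stands for it. This gave 33 Hox genes of 18193 genes, from 48 probe sets. The 4 groups had 3 arrays each: TKO-Ras MEFs (deletions of Rb1, p107 and p130 and a RasG12D allele), TKO MEFs (the same 3 deletions), Rb1KO MEFs (deletion of Rb1) and wild type (WT) MEFs. p107 and p130 are the proteins of the genes Rbl1 and Rbl2. All cultures were untreated and taken while growing exponentially. What Rb1KO and TKO-Ras MEFs are is known here from the labels alone, and TKO MEFs came to the study from another laboratory. Arrays of a group are labelled as biological replicates, with no word on separate embryos or dishes, so the p-values measure the spread between these RNA samples, which may be technical. The age of the embryos and the body region that each culture was grown from are not given in the sources used here, so genotype and the origin of a culture cannot be told apart.

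Mammalian Hox genes lie in 4 clusters, HoxA to HoxD, and are numbered by paralogue group, the position they share between clusters. Genes with low numbers act toward the head and those with high numbers toward the tail and the tips of the limbs, so that the set of active Hox genes works as an address. Fibroblasts keep much of this address in culture. Polycomb proteins hold the inactive part of a cluster silent, retinoic acid switches on low-numbered genes in the embryo, and Hox proteins bind DNA together with the TALE homeodomain proteins of the Pbx, Meis and Pknox families.

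The promoters of 4 members are printed because they carry the main pattern: on their brightest probe sets Hoxd13, Hoxd10 and Hoxa9 were high in TKO-Ras and TKO MEFs and at background in Rb1KO and WT MEFs, while Hoxa2 had signal in Rb1KO MEFs and on 2 of the 3 WT arrays. Each run is the 250 bases before the RefSeq transcript start (GRCm38.p6), 5′ to 3′ on the strand of the gene, with capitals at CpG dinucleotides, where mammalian DNA is methylated.
Hoxd13 (chr2:74667975-74668224, plus strand): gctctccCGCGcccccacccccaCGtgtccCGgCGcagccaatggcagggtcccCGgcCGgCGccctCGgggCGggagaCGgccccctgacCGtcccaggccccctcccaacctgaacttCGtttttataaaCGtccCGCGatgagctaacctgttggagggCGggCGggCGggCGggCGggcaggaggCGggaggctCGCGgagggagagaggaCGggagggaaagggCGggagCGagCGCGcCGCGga
Hoxd10 (chr2:74691641-74691890, plus strand): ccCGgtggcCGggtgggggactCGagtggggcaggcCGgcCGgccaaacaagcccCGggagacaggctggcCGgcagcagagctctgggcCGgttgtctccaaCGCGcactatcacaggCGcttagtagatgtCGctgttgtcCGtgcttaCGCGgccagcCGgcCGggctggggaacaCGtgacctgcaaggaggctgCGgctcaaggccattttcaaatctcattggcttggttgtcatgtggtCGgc
Hoxa9 (chr6:52227371-52227620, minus strand): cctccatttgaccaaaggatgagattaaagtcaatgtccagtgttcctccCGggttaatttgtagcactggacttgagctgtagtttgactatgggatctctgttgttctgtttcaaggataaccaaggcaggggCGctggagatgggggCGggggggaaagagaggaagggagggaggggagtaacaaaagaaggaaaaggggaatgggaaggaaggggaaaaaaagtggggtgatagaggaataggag
Hoxa2 (chr6:52164832-52165081, minus strand): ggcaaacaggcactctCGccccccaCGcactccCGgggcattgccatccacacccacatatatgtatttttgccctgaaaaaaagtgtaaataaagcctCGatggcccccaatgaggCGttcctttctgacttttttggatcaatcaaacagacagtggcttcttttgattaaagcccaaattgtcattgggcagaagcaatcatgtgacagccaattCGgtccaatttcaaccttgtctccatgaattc
In these runs Hoxd13 held 31 CpG, Hoxd10 held 20, Hoxa9 held 3 and Hoxa2 held 6, so genes with the same pattern across genotypes differed widely in CpG number. The RefSeq table had 21 promoter windows for 19 of the 33 genes, each from 250 bases before to 50 after the start. Their median CpG number was 15 and their median GC content 58%, against 7 CpG and 52.7% over all 32851 windows. The E2F motifs TTTCCCGC and TTTGGCGC, searched on both strands, were in 0 of the 21 Hox windows, while either was in 1.56% of all windows. The Pbx-Hox motif TGATNNAT was in 3 of the 21 (Hoxa2, 1 of the windows of Hoxd11, and Hoxb1), against 8.85% of all windows. In Hoxa2 its first base lay at position -111 from the start, on the strand opposite to the gene. A match is a description of letters, and a window without a match says nothing about the factor.

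Values are on the log2 scale of the robust multi-array average (RMA), as deposited, and levels are compared between arrays for a probe set, never between probe sets. The background level was 5.13. It was set from 44 probe sets of olfactory receptors, genes of the nose that fibroblasts are not known to use, as the 95th percentile of their values. A gene is called above background in a group with all 3 arrays above this level and at background with none above it. In bulk RNA, fewer cells with a transcript and less of it per cell cannot be told apart. A gene is called higher or lower at an adjusted p under 0.05 from limma, adjusted over 45037 probe sets.

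The genes of the genotypes followed most labels. Rbl1 lay between 4.0 and 4.99 in TKO-Ras, between 4.42 and 5.12 in TKO, between 8.32 and 9.0 in Rb1KO and between 8.18 and 8.32 in WT MEFs. Rb1 lay between 7.45 and 7.66 in TKO-Ras, between 6.97 and 7.43 in TKO, between 7.51 and 7.74 in Rb1KO and between 8.31 and 8.70 in WT MEFs. On this probe set Rb1 was thus lower than in WT but well above background in every group labelled with its deletion. Rbl2 lay between 4.60 and 5.35 in TKO-Ras and between 5.27 and 5.71 in TKO MEFs. It was also low on every array labelled Rb1KO (3.80 to 4.47), where the label names no Rbl2 deletion, against 7.54 to 7.90 in WT MEFs. Fibroblast markers were above background for 9 to 12 of 12 genes in each group, and Thy1 was at background in TKO-Ras and TKO MEFs. Of the markers of other cell types, 3 to 4 of 10 epithelial and 3 to 4 of 10 endothelial genes were above background in each group. So were 2 to 4 of 10 macrophage and leukocyte genes and 6 of 9 neural genes. In these lists Cdh1, Pecam1, Cdh5 and Ptprc were at background in all groups, whereas Epcam, Kdr, Csf1r and Cd14 were above it in all groups. For skeletal muscle 4 of 10 genes were above background in each group, and for cartilage and bone 3 to 4 of 8. For adipocytes it was 4 to 5 of 8. The cartilage gene Col2a1 lay between 7.63 and 8.58 in WT and between 5.66 and 6.66 in TKO MEFs. It lay between 4.79 and 5.10 in TKO-Ras and between 4.89 and 5.21 in Rb1KO MEFs. Acan, also a cartilage gene, lay between 6.65 and 7.92 in Rb1KO MEFs and was at background in the others. The keratin gene Krt19 lay between 10.20 and 10.93 in TKO-Ras, between 7.97 and 9.07 in TKO, between 7.63 and 8.37 in Rb1KO and between 5.11 and 9.09 in WT MEFs. The neural stem cell factor Sox2 lay between 9.11 and 10.31 in TKO-Ras, between 8.58 and 9.18 in TKO, between 4.32 and 5.54 in Rb1KO and between 3.07 and 4.77 in WT MEFs, high in the same groups as the HoxA and HoxD genes described below, and the neuronal gene Map2 was at background in TKO-Ras and TKO MEFs, between 8.04 and 8.49 in Rb1KO and between 10.18 and 10.72 in WT MEFs. The part of other cells in the Hox results was not tested. WT replicate 3 stood apart: its mean correlation with its own group was 0.974, against 0.982 to 0.994 for the other arrays, and the Y-linked gene Eif2s3y was at 4.91 there, against 8.63 and 9.12 on WT replicates 1 and 2. Sex-linked genes also divided all mutant arrays from WT: Eif2s3y lay between 3.01 and 3.31 on the 9 mutant arrays, and Xist, the RNA of the inactive X chromosome, between 4.63 and 5.13 there and between 8.79 and 11.57 on the WT arrays. In each comparison with WT, genotype and this difference cannot be told apart.

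Of the 33 Hox genes, 19 were above background in TKO-Ras, 17 in TKO, 10 in Rb1KO and 10 in WT MEFs. Of all probe sets, 52.87% to 54.16% lay above this level on each single array, so these counts alone do not set the Hox genes apart in TKO-Ras and TKO MEFs. That share is per array and per probe set, whereas a Hox gene is counted only with all 3 arrays above the level. The genes above background in both TKO-Ras and TKO but in neither Rb1KO nor WT MEFs all lay in HoxA and HoxD. In HoxA, 7 of 9 genes were above background in TKO-Ras and TKO MEFs, 4 in Rb1KO and 3 in WT MEFs. In HoxD, 6 of 8 were above it in TKO-Ras and TKO MEFs, and in Rb1KO and WT MEFs 1 was, Hoxd9. HoxB had 4 of 9 above background in TKO-Ras, 2 in TKO, 3 in Rb1KO and 4 in WT MEFs, and HoxC had Hoxc6 and Hoxc9 of its 7 in every group. Another 10 genes were at background on all 12 arrays on their own probe sets: Hoxa4, Hoxb1, Hoxb5, Hoxb6, Hoxb7, Hoxc8, Hoxc10, Hoxc13, Hoxd1 and Hoxd3. For Hoxd3 a further probe set, which also names Hoxd4 and so was left out of the members, read between 5.26 and 5.97, above background on all 12 arrays. The genes above background on all 12 arrays were Hoxa3, Hoxa5, Hoxa7, Hoxb3, Hoxc6, Hoxc9 and Hoxd9.

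**Figure D1:**
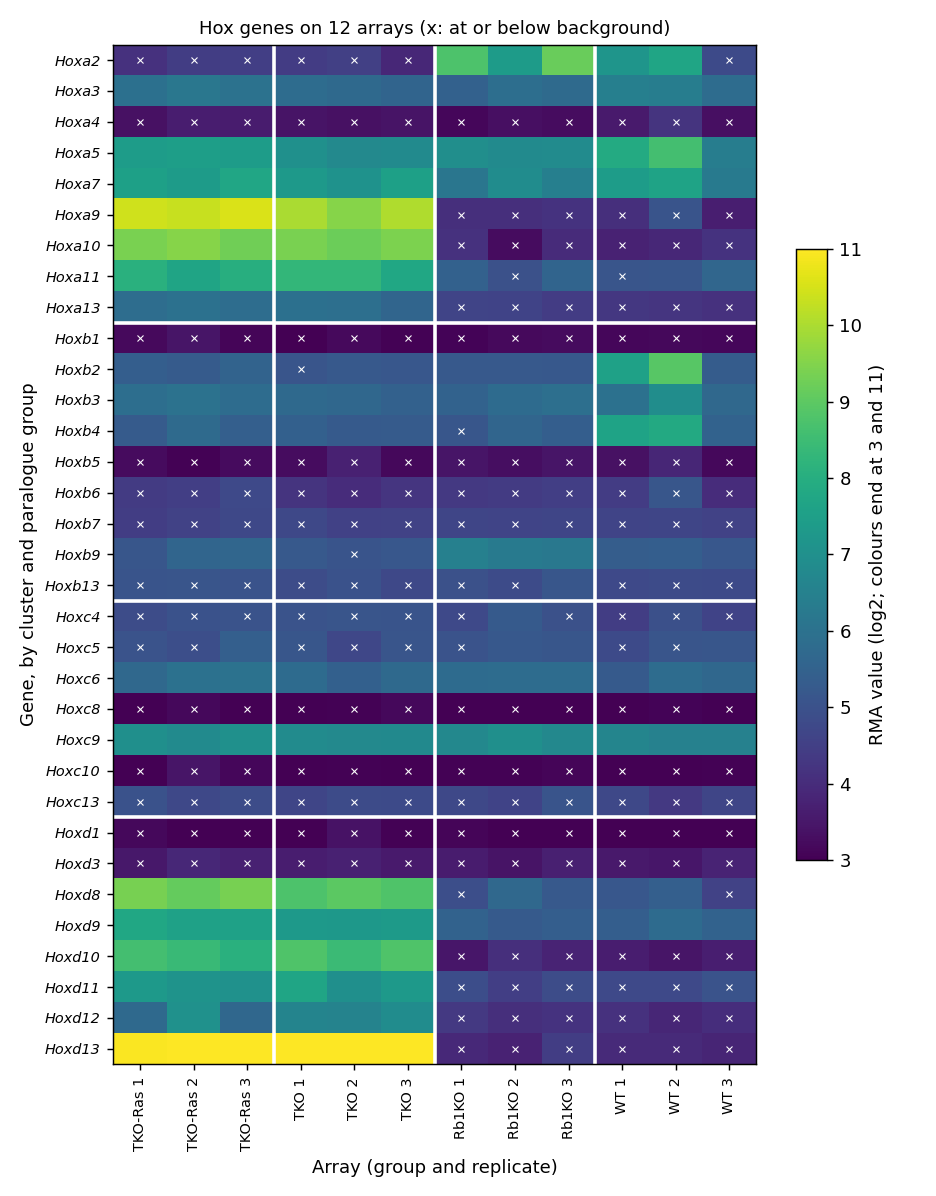
RMA values (log2, colour) of the 33 Hox genes, in rows by cluster and paralogue group, on 12 arrays in columns by group and replicate; a cross marks a value at or below the background level of 5.13. Hoxa9 to Hoxa13 and Hoxd8 to Hoxd13 are brighter on the TKO-Ras and TKO arrays than on the other arrays. Hoxa13 reaches only 5.61 to 5.98 there and Hoxd12 5.69 to 7.05. Hoxb2 and Hoxb4 are bright on WT replicates 1 and 2.

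The main change of TKO against WT MEFs was in the high-numbered genes of HoxA and HoxD. All 10 measured members of paralogue groups 8 to 13 in these clusters were higher in TKO MEFs, with log2 fold changes of 1.60 to 7.31, and none of the 6 measured members of the same paralogue groups in HoxB and HoxC was called, with changes of -0.14 to 0.24. Over all 33 genes, 10 were called higher and 3 lower, against 13.6% called higher and 9.90% called lower of all genes. The median log2 fold change was 0.07 over the Hox genes and 0.05 over all genes, since most Hox genes did not pass the test. The division at paralogue group 8 was drawn with these values known.

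The HoxD genes of groups 12 and 13 pattern the digits and the external genitalia. Hoxd13 lay at 10.95, 11.31 and 10.99 in TKO-Ras MEFs, at 11.31, 11.20 and 11.16 in TKO, at 3.91, 3.78 and 4.45 in Rb1KO and at 3.94, 3.97 and 3.81 in WT MEFs. All 6 arrays of TKO-Ras and TKO were high and all others at background, with no overlap. On this brightest probe set of Hoxd13 the lower bound of the difference of TKO from WT was 68.1-fold (log2 fold change 7.31, SE 0.16, adjusted p = 1.03e-09 from limma). A second Hoxd13 probe set changed by 3.28 on the log2 scale (SE 0.14). Hoxd12 lay at 5.74, 7.05 and 5.69 in TKO-Ras, at 6.60, 6.57 and 6.89 in TKO, at 4.34, 4.07 and 4.18 in Rb1KO, and at 4.15, 3.86 and 4.04 in WT MEFs. It was at background in both Rb1KO and WT MEFs, and TKO exceeded WT at least 2.94-fold (log2 fold change 2.67, SE 0.29, adjusted p = 8.32e-05).

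The HoxD genes of groups 8 to 11 act in the trunk, the forearm and the lower leg. Hoxd11 lay at 7.34, 7.12 and 7.04 in TKO-Ras, at 7.70, 6.98 and 7.34 in TKO, at 4.90, 4.48 and 4.87 in Rb1KO and at 4.77, 4.77 and 5.04 in WT MEFs, a rise in TKO over WT of at least 4.62-fold (log2 fold change 2.48, SE 0.18, adjusted p = 5.64e-06). Hoxd10 lay at 8.60, 8.44 and 8.07 in TKO-Ras, at 8.81, 8.45 and 8.81 in TKO, at 3.47, 4.09 and 3.81 in Rb1KO and at 3.63, 3.45 and 3.66 in WT MEFs. Both genes were at background on every Rb1KO and WT array, and for Hoxd10 TKO exceeded WT at least 11.8-fold (log2 fold change 5.11, SE 0.18, adjusted p = 2.25e-08). Hoxd9 was above background in every group, at 7.75, 7.59 and 7.57 in TKO-Ras, at 7.31, 7.26 and 7.37 in TKO, at 5.52, 5.28 and 5.38 in Rb1KO and at 5.40, 5.78 and 5.51 in WT MEFs. The Rb1KO and WT arrays were close to the background level, below the 99th percentile of the olfactory receptors (5.82). Hoxd9 did not overlap between TKO and WT arrays (log2 fold change 1.75, SE 0.11, adjusted p = 2.5e-06). Hoxd8 lay at 9.37, 9.10 and 9.37 in TKO-Ras, at 8.77, 8.98 and 8.81 in TKO, at 4.93, 5.71 and 5.22 in Rb1KO and at 5.18, 5.42 and 4.59 in WT MEFs. The Rb1KO and WT arrays straddled the background level, and TKO against WT was 3.79 on the log2 scale (SE 0.22, adjusted p = 1.2e-06), with 2.72 (SE 0.20) on its second probe set. Hoxd1 and Hoxd3, at the other end of the cluster, were at background on their own probe sets on every array. The brighter probe set that names Hoxd3 and Hoxd4 together was called in Rb1KO against WT (0.40, SE 0.12, adjusted p = 0.0273), and was not called in TKO against WT (0.16, SE 0.12, adjusted p = 0.404).

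In HoxA, Hoxa13 acts in the hand, the foot and the hindgut, Hoxa11 in the forearm, kidney and uterus, and Hoxa9 and Hoxa10 in the trunk, the limbs and blood stem cells. Hoxa13 lay at 5.86, 5.98 and 5.87 in TKO-Ras, at 5.94, 5.91 and 5.61 in TKO, at 4.64, 4.60 and 4.43 in Rb1KO and at 4.31, 4.22 and 4.13 in WT MEFs, a log2 fold change of 1.60 in TKO against WT (SE 0.11, adjusted p = 3.74e-06), or at least 1.61-fold. Hoxa11 lay at 8.09, 7.68 and 8.02 in TKO-Ras, at 8.29, 8.30 and 7.77 in TKO, at 5.49, 4.97 and 5.59 in Rb1KO and at 5.12, 5.13 and 5.65 in WT MEFs. For both genes every TKO-Ras and TKO array was above every Rb1KO and WT array, and Hoxa11 changed by 2.82 (SE 0.21, adjusted p = 7.46e-06). Hoxa10 lay at 9.38, 9.53 and 9.28 in TKO-Ras, at 9.39, 9.21 and 9.43 in TKO, at 4.15, 3.28 and 3.99 in Rb1KO and at 3.77, 3.90 and 4.18 in WT MEFs. TKO exceeded WT at least 18.5-fold (log2 fold change 5.40, SE 0.20, adjusted p = 3.03e-08), while the second probe set of Hoxa10 was at background on every array. Hoxa9 lay at 10.41, 10.32 and 10.56 in TKO-Ras, at 9.98, 9.56 and 10.06 in TKO, at 4.09, 4.09 and 4.18 in Rb1KO and at 4.07, 5.07 and 3.68 in WT MEFs. It was at background on this probe set in Rb1KO and WT MEFs, and TKO exceeded WT at least 26.6-fold there (log2 fold change 5.59, SE 0.28, adjusted p = 3.5e-07). On a second Hoxa9 probe set the Rb1KO and WT arrays read from 5.95 to 6.68, above the background level, and the change was 1.18 (SE 0.19).

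The antisense transcript of Hoxa11, Hoxa11os, moved with this block. On its brighter probe set it lay at 8.0, 7.68 and 7.59 in TKO-Ras, at 8.04, 7.34 and 8.03 in TKO, at 5.0, 4.58 and 4.81 in Rb1KO and at 4.51, 4.41 and 4.54 in WT MEFs. TKO exceeded WT at least 6.36-fold (log2 fold change 3.32, SE 0.19, adjusted p = 9.12e-07), and its other probe set was at background. Evx2, the homeobox gene next to Hoxd13, was above background in every group and changed by 0.00 (SE 0.13), and Evx1, next to Hoxa13, was at background in every group. Of 40 protein-coding genes within 5 places of either end of a cluster, 38 were measured, and 13 were higher and 3 lower in TKO against WT MEFs (13.6% and 9.90% of all genes), with a median log2 fold change of 0.10. The 3 largest called changes with signal above background were 1.19 for Nfe2l2, a stress response factor beyond HoxD, -1.06 for Copz2, a coat protein gene beside HoxB, and 1.01 for Cbx5, a heterochromatin protein gene beside HoxC. Lnpk and Mtx2, which flank Evx2 and the far end of HoxD, changed by 0.47 and 0.36. Jazf1, near HoxA, was lower by -1.81 and below the background level on average in both groups. Hoxa11os, Evx1, Evx2, Lnpk, Mtx2 and Jazf1 were picked after their values were seen.

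**Figure D2:**
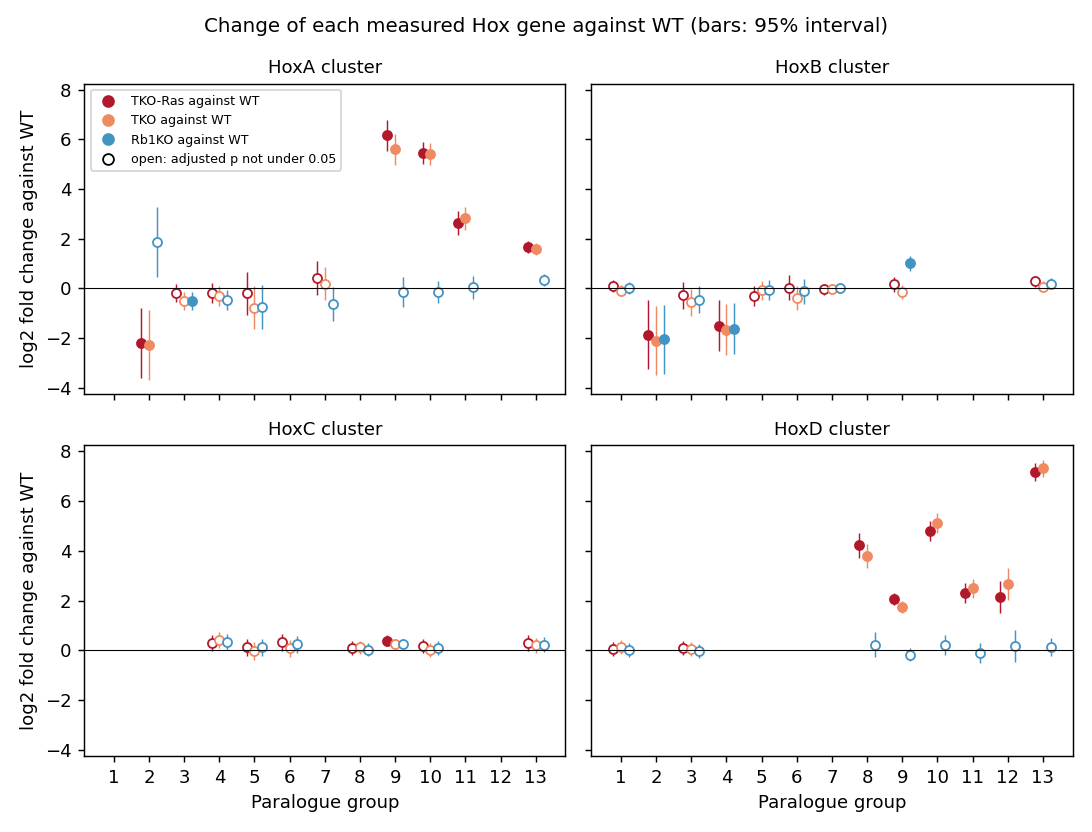
Log2 fold change against WT (y) by paralogue group (x) in each Hox cluster, for TKO-Ras, TKO and Rb1KO; bars are 95% intervals and open points did not pass an adjusted p under 0.05. TKO-Ras and TKO points stand between 1.60 and 7.31 for HoxA groups 9 to 13 and HoxD groups 8 to 13, while the Rb1KO points there lie between -0.18 and 0.33.

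The brightest probe sets showed no such block in Rb1KO MEFs. Against WT, none of the 10 genes was called and their log2 fold changes ran from -0.18 to 0.33. The second Hoxd13 probe set was called, at 5.16, 5.07 and 4.85 in Rb1KO and at 4.60, 4.30 and 4.55 in WT MEFs (0.54, SE 0.14, adjusted p = 0.017), with 1 of these 6 arrays above the background level. Against Rb1KO, the same 10 genes were higher in TKO MEFs, by 1.27 for Hoxa13 (at least 1.61-fold, adjusted p = 3.86e-05) to 7.18 for Hoxd13 (at least 68.1-fold, adjusted p = 2.55e-09). In all, 10 Hox genes were higher and 2 lower in TKO against Rb1KO, where 5.92% of all genes were higher and 3.63% lower. The comparisons of TKO with WT and with Rb1KO share the TKO arrays, so they are not independent.

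Rb1KO against WT called 1 Hox gene higher and 3 lower, against 15.6% higher and 12.3% lower of all genes, with a median of 0.02 over the Hox genes and 0.08 over all genes. The gene called higher was Hoxb9, a gene of the thoracic segments, at 6.47, 6.29 and 6.20 in Rb1KO and at 5.36, 5.39 and 5.16 in WT MEFs. Its groups did not overlap, with a log2 fold change of 1.02 (SE 0.14, adjusted p = 2.91e-04). In TKO MEFs Hoxb9 was at 5.23, 5.09 and 5.16, close to the background level, and lower than in Rb1KO MEFs by a log2 fold change of -1.16 (SE 0.14, adjusted p = 3.53e-04). TKO-Ras MEFs had 5.15, 5.61 and 5.63.

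Of the 12 HoxA and HoxB genes of groups 1 to 7, 3 were called lower in TKO against WT and none higher. Of all genes, 9.90% were lower and 13.6% higher. The median over the 12 was -0.44, and the 3 lower genes were Hoxa2, Hoxb2 and Hoxb4. The low-numbered genes measured in the other clusters, Hoxc4, Hoxc5, Hoxc6, Hoxd1 and Hoxd3, were not called, with changes of -0.03 to 0.40. The choice of HoxA and HoxB was made with earlier results of these data known. In Hoxa2, Hoxb2 and Hoxb4 WT replicate 3 differed from the other WT arrays. Hoxa2, which patterns the second branchial arch and the hindbrain, lay at 4.14, 4.44 and 4.49 in TKO-Ras, at 4.44, 4.52 and 3.88 in TKO, at 8.75, 7.38 and 9.17 in Rb1KO and at 7.17, 7.72 and 4.80 in WT MEFs. It was thus at background on every TKO-Ras and TKO array and on WT replicate 3, and well above it on the other 5 arrays. TKO against Rb1KO was at least 9.87-fold lower (log2 fold change -4.16, SE 0.64, adjusted p = 0.00219). TKO against WT was at least 2.69-fold lower (log2 fold change -2.28, SE 0.64, adjusted p = 0.0278), or 4.96-fold without WT replicate 3, and Rb1KO against WT was 1.87 with overlapping arrays (SE 0.64, adjusted p = 0.0581).

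Hoxb2 and Hoxb4, which pattern the hindbrain and the neck, had signal well above background on 2 arrays only. Hoxb2 lay at 5.40, 5.31 and 5.54 in TKO-Ras, at 5.10, 5.22 and 5.16 in TKO, at 5.24, 5.24 and 5.20 in Rb1KO and at 7.58, 8.92 and 5.32 in WT MEFs. Hoxb4 lay at 5.31, 5.77 and 5.41 in TKO-Ras, at 5.46, 5.25 and 5.31 in TKO, at 5.13, 5.61 and 5.39 in Rb1KO and at 7.65, 7.85 and 5.50 in WT MEFs. For both genes WT replicate 3 read like the mutant arrays. Hoxb2 was lower by -2.11 in TKO (SE 0.63, adjusted p = 0.0365) and by -2.05 in Rb1KO (SE 0.63, adjusted p = 0.0369) against WT. Hoxb4 was lower by -1.66 in TKO (SE 0.47, adjusted p = 0.0285) and by -1.62 in Rb1KO MEFs (SE 0.47, adjusted p = 0.0276). The remaining call of Rb1KO against WT was Hoxa3, at -0.51 (SE 0.17, adjusted p = 0.0487) with overlapping arrays.

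Other probe sets of low-numbered genes had the same split of the WT arrays, and were picked for it after their values were seen. Another Hoxa3 probe set lay between 4.07 and 4.43 in TKO-Ras, between 3.83 and 4.02 in TKO, between 3.60 and 4.40 in Rb1KO, and at 6.74, 7.97 and 4.24 in WT MEFs. A Hoxb3 probe set lay between 3.02 and 3.54 on 10 arrays and at 7.19 and 7.77 on WT replicates 1 and 2. Another Hoxa5 probe set lay at 6.98, 6.83 and 6.92 in TKO-Ras, at 6.86, 6.38 and 6.79 in TKO, at 5.57, 4.89 and 5.65 in Rb1KO, and at 9.07, 9.87 and 5.88 in WT MEFs. In each, WT replicates 1 and 2 were the highest of the 12 arrays.

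**Figure D3:**
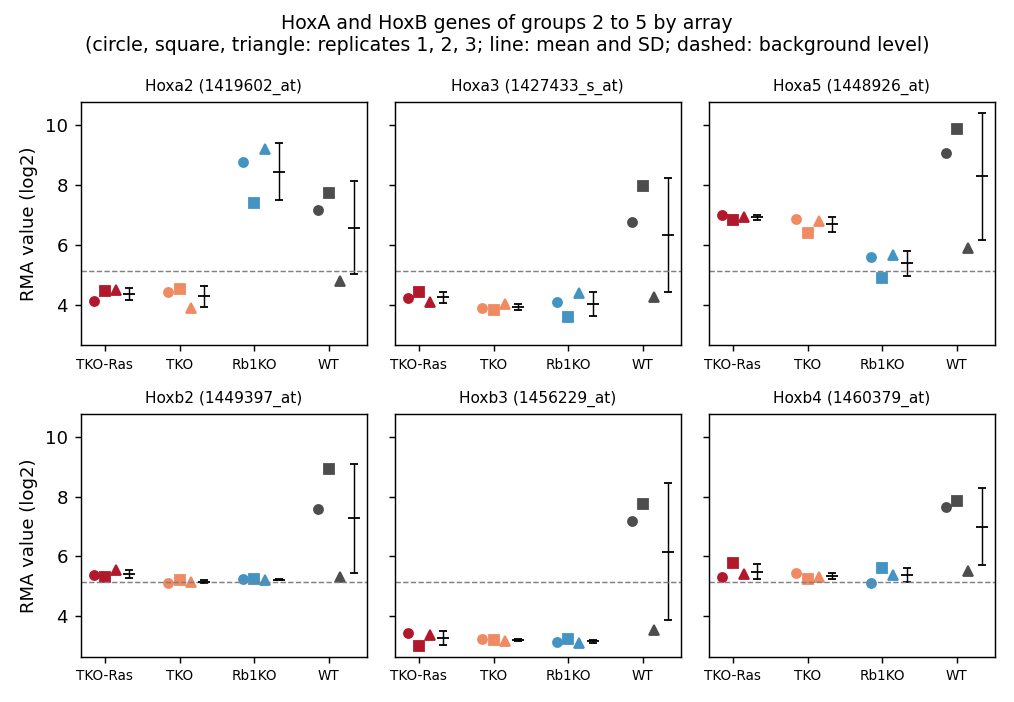
RMA values (log2) of 6 probe sets of low-numbered HoxA and HoxB genes by group, with replicates as circle, square and triangle, the mean and SD beside them and the background level of 5.13 dashed. WT replicate 3 lies at 4.80 for Hoxa2, 5.32 for Hoxb2 and 5.50 for Hoxb4, below the other WT arrays in every panel.

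The calls for low-numbered genes against WT rest on which arrays are used. With WT replicate 3 left out, TKO against WT called 10 Hox genes higher and 7 lower, against 14.4% and 10.9% of all genes. The added genes were Hoxa3, Hoxa5, Hoxb3 and Hoxb6, of which Hoxb6 is at background. Without that array Hoxa2 was -3.17 (adjusted p = 2.51e-04) and Hoxb2 -3.09 (adjusted p = 1.59e-05) in TKO against WT. Rb1KO against WT then called 1 higher and 7 lower, against 15.9% and 13.6% of all genes. This added Hoxa4 (at background), Hoxa5, Hoxa7 and Hoxb3, with Hoxb2 at -3.03 and Hoxb4 at -2.37. With any other array of the compared groups left out, TKO against WT and Rb1KO against WT called 0 Hox genes lower. Of all genes, 7.15% to 8.89% were then lower in TKO and 9.72% to 11.1% in Rb1KO MEFs. The 10 higher genes of TKO against WT were called in each of these fits.

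Between TKO-Ras and TKO MEFs no Hox gene was called in the fit of all 12 arrays. Whether the 2 groups came from the same founding culture is not given in the sources used here. TKO-Ras against TKO called 0 of 33 with limma, against 3.19% of all genes higher and 4.17% lower, and 2 had an unadjusted p under 0.05, Hoxd9 and Hoxb9, both higher. The log2 fold changes ran from -0.53 for Hoxd12 (95% interval -1.17 to 0.11) to 0.57 for Hoxa5 (-0.31 to 1.45), with a median of 0.15, against 0.04 over all genes. For Hoxd13 the difference was -0.14 (-0.50 to 0.22), for Hoxa10 0.05 (-0.39 to 0.49) and for Hoxd9 0.32 (0.07 to 0.57, adjusted p = 0.14). Hoxa2, Hoxb2 and Hoxb4 had the widest intervals, with -1.33 to 1.49 for Hoxa2. The spread in this fit was pooled over all groups, so the split WT arrays widen these intervals and that of Hoxa5. Hoxa5 lay at 7.42, 7.49 and 7.42 in TKO-Ras and at 7.01, 6.78 and 6.84 in TKO MEFs, without overlap. With only these groups fitted it was called (adjusted p = 0.0187 from limma). Hoxd12 was spread in TKO-Ras MEFs, with replicate 2 at 7.05 and the others at 5.74 and 5.69, and without that replicate it was the only Hox gene called lower.

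**Figure D4:**
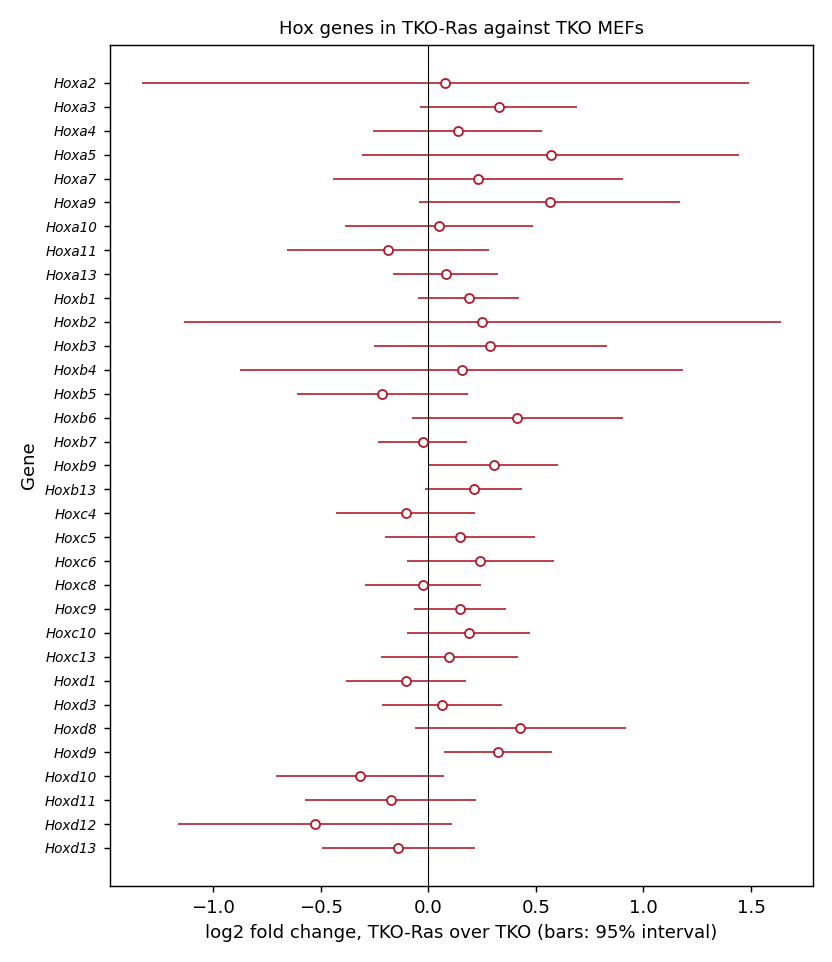
Log2 fold change of each of the 33 Hox genes in TKO-Ras over TKO MEFs (x) with its 95% interval, genes in rows by cluster and paralogue group. All 33 differences lie between -0.53 and 0.57.

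Against WT, TKO-Ras MEFs held the same 10 high-numbered genes higher, from 1.68 for Hoxa13 (at least 1.71-fold) to 7.18 for Hoxd13 (at least 61.8-fold). The other gene called higher was Hoxc9, at 6.99, 6.84 and 7.01 in TKO-Ras and at 6.64, 6.51 and 6.53 in WT MEFs (log2 fold change 0.39, SE 0.10, adjusted p = 0.0115). Hoxa2, Hoxb2 and Hoxb4 were lower, so 11 genes were higher and 3 lower, against 19.4% and 14.3% of all genes. Leaving out WT replicate 3 gave 11 higher and 4 lower, adding Hoxa5, against 18.9% and 14.7% of all genes. Leaving out any other array of these groups gave 0 lower, against 11.7% to 13.5% of all genes. HoxC was otherwise flat, with medians of 0.29 in TKO-Ras, 0.12 in TKO and 0.23 in Rb1KO against WT.

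Of 8 measured TALE cofactors, the partners of Hox proteins, 1 was higher and 3 lower in TKO against WT (13.6% and 9.90% of all genes), with a median of -0.02. Meis1 lay at 5.14, 5.17 and 4.67 in TKO-Ras, at 5.40, 5.69 and 6.35 in TKO, at 8.93, 8.34 and 8.97 in Rb1KO and at 7.75, 7.49 and 8.11 in WT MEFs. It was lowest in TKO-Ras and highest in Rb1KO MEFs, with a log2 fold change of -1.97 in TKO against WT (adjusted p = 3.43e-04) and 0.96 in Rb1KO against WT (adjusted p = 0.0209). Meis2 changed by -1.53 in TKO (adjusted p = 3.14e-04) and 0.72 in Rb1KO (adjusted p = 0.0239) against WT. Against Rb1KO, TKO MEFs were lower in Meis1 by -2.93 and in Meis2 by -2.24 (adjusted p = 4.7e-05 each). No TALE gene was called in TKO-Ras against TKO, where 3.19% of all genes were higher and 4.17% lower. Among the genes with changes under 1, Pknox1 was higher in both TKO (0.43) and Rb1KO MEFs (0.52).

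Other transcription factors that mark position were read from a list of 34, of which 31 were measured. In TKO against WT, 2 were higher and 4 lower (13.6% and 9.90% of all genes), with a median of -0.06. Pitx1, which gives the hindlimb its identity, lay at 8.27, 7.99 and 8.02 in TKO-Ras, at 8.28, 8.34 and 8.17 in TKO, at 4.98, 4.88 and 4.57 in Rb1KO and at 4.92, 5.05 and 5.14 in WT MEFs. It was high in the groups with the HoxA and HoxD block and at or near background in the others (log2 fold change 3.22, adjusted p = 4.78e-08). Tbx4, another hindlimb factor of the list, was at background on all 12 arrays, between 4.23 and 4.92, and was picked after its values were seen. Lhx2, a limb and forebrain factor, was at background in WT MEFs and higher in TKO (3.90, at least 3.26-fold, adjusted p = 2.51e-07) and in Rb1KO MEFs (3.13, at least 1.91-fold). Shox2, a factor of the upper limb segment, lay at 6.75, 6.44 and 6.49 in TKO-Ras, at 4.43, 4.60 and 5.04 in TKO, at 9.64, 9.65 and 9.91 in Rb1KO and at 9.69, 6.60 and 11.24 in WT MEFs. The WT arrays spread widely, and TKO was lower than WT by at least 16.5-fold with all arrays (log2 fold change -4.48, adjusted p = 0.0028) and by at least 8.05-fold without WT replicate 3 (-3.45, adjusted p = 0.00207).

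In Rb1KO against WT, 6 of these factors were higher and 1 lower (15.6% and 12.3% of all genes), with a median of 0.07. Dlx6 and Dlx5, which pattern the jaw arches and the limb edge, were high in Rb1KO MEFs. Dlx6 lay at 9.03, 7.96 and 9.23 in Rb1KO and at 3.94, 4.09 and 4.44 in WT MEFs (at least 12.2-fold, log2 fold change 4.58), Dlx5 lay at 9.73, 8.85 and 9.67 in Rb1KO and at 5.91, 5.47 and 5.90 in WT MEFs (3.65), and Barx1, a factor of the jaw and stomach mesenchyme, changed by 2.78. In TKO-Ras and TKO MEFs Dlx5 and Dlx6 were at background on every array. Tbx15, a factor of the trunk skin and skeleton, was lower in Rb1KO than in WT MEFs (-2.05). In TKO-Ras against TKO, 0 were higher and 4 lower (3.19% and 4.17% of all genes). The 4 were led by Emx2 at 4.16 in TKO-Ras and 7.63 in TKO MEFs (means, at least 5.63-fold lower, adjusted p = 1.11e-04) and by Irx3 (-1.93, adjusted p = 2.5e-04).

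**Figure D5:**
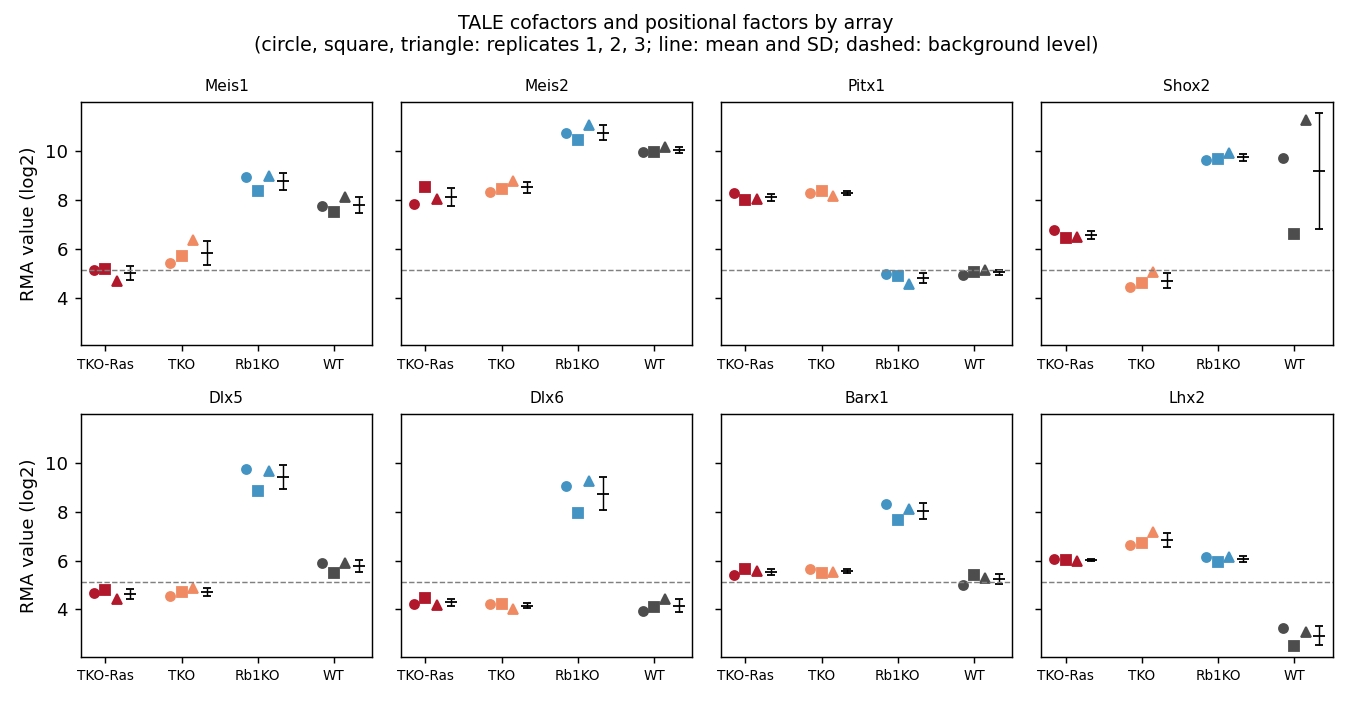
RMA values (log2) of 8 Hox partners and positional factors by group, with replicates as circle, square and triangle, the mean and SD beside them and the background level of 5.13 dashed. Pitx1 is high in TKO-Ras and TKO MEFs, and Dlx5, Dlx6 and Barx1 are high in Rb1KO MEFs.

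Among regulators that hold Hox clusters silent or active, 11 of 32 measured Polycomb and trithorax genes were higher and 4 lower in TKO against WT (13.6% and 9.90% of all genes), with a median of 0.31. In Rb1KO against WT 14 were higher and 3 lower (15.6% and 12.3% of all genes), with a median of 0.33. The Polycomb methyltransferase gene Ezh2 was at 10.79 ± 0.07 in TKO, at 10.96 ± 0.15 in Rb1KO and at 9.52 ± 0.16 in WT MEFs (mean ± SD, n = 3 each), and its partner Suz12 changed by 1.16 in TKO and 1.22 in Rb1KO against WT. The demethylase gene Kdm6b was lower in Rb1KO than in WT MEFs (-1.12) and higher in TKO than in Rb1KO MEFs (0.55, adjusted p = 0.032). It was the 1 gene of the list called in TKO against Rb1KO, where 5.92% of all genes were higher and 3.63% lower. In TKO-Ras against TKO, 2 were higher, Pcgf5 (1.53) and Phc2 (1.04), and 0 lower (3.19% and 4.17% of all genes).

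Of 16 measured genes of the retinoic acid pathway, 4 were higher and 2 lower in TKO against WT (13.6% and 9.90% of all genes), with a median of 0.25. The retinoic acid carrier gene Crabp2 lay at 11.99, 12.14 and 11.87 in TKO-Ras, at 12.53, 12.13 and 12.20 in TKO, at 8.32, 7.31 and 8.57 in Rb1KO and at 6.20, 6.57 and 6.89 in WT MEFs. TKO-Ras and TKO arrays were above all others (log2 fold change 5.73 in TKO against WT, adjusted p = 3.48e-07). The receptor gene Rarb, itself a target of retinoic acid, was higher in TKO than in WT MEFs (2.20, adjusted p = 0.00445) and lower in TKO-Ras than in TKO MEFs (-2.64, adjusted p = 0.00506). Aldh1a1, which encodes an enzyme that makes retinoic acid, was at background in TKO-Ras, TKO and Rb1KO MEFs and read 7.90, 8.16 and 4.47 on the WT arrays, the same split as for Hoxa2, Hoxb2 and Hoxb4 (log2 fold change -3.75 in TKO against WT, adjusted p = 0.00349, and -4.94 without WT replicate 3).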

How the data were processed

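RNA of 12 samples was measured on Affymetrix MOE430 2.0 arrays. The paper's methods give 100 ng of total RNA each and name WT and TKO MEFs only. The authors made the values in Partek 6.5 by RMA, which subtracts background, equalizes the arrays and combines the probes of a probe set (methods and submitters' processing notes). Deposited values are read as log2, from their range of 2.18 to 14.92, and come without detection calls. The 64 control probe sets were left out, and 45037 were tested. Gene names came from the platform annotation: 34945 probe sets have 1 symbol, 932 several and 9160 none. The 3 probe sets naming several Hox genes were left out, and Hox genes without a probe set of their own among those used are not analysed here. Promoters and positions are RefSeq's, on its own build.

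All 12 arrays entered 1 fit in limma 3.58.1 (R 4.3.3; lmFit and eBayes, 8 residual degrees of freedom, group means only), with 5 contrasts, 2-sided, Benjamini-Hochberg adjusted over 45037 probe sets. Comparisons that share WT or TKO arrays are not independent. The number of arrays limits the precision. The script was tested on simulated data. Where no array of a group exceeded background, a fold is a lower bound for that probe set, against the background level itself. Shares of all genes called used 18193 genes by the same choice of probe set.

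The members, gene lists and rules were chosen with earlier results of these data known. Per-array values are given for Hox genes above background in at least 1 group and called with a log2 fold change of 1 or more; list genes are the 3 largest called changes of a comparison without overlap of arrays and with the higher group above background. Alternatives were array weights, a variance trend with a robust fit, plain variances in place of moderated ones, a replicate block, the compared groups alone, median centring, cyclic loess, a filter on low values, other choices of probe set, other background percentiles and each array left out in turn. Python 3.11.15 and matplotlib 3.10.9 drew the figures.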

Additional observations from a re-analysis of the deposited data

How the results depend on the processing

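Against the 13 Hox genes of TKO against WT, the 12 of TKO against Rb1KO and the 14 of TKO-Ras against WT, the alternatives gave 10 to 17, 11 to 13 and 11 to 18. Rb1KO against WT (4 genes) depended most on the processing: 2 genes with an intensity trend and robust hyperparameters, 2 without moderation of the variance, 9 with array weights, 9 with the mean of all probe sets, 1 with only the groups compared, and 1 to 8 with each array left out, 8 being without WT replicate 3. TKO-Ras against TKO (0 genes) gave 1 with only the groups compared (Hoxa5, 0.57, adjusted p = 0.0187 from limma) and 0 to 1 with each array left out, the 1 being Hoxd12 without TKO-Ras replicate 2. Genes above background numbered 26 in TKO, 23 in Rb1KO and 22 in WT MEFs with the median of the olfactory receptors as the level, 5 in Rb1KO and 4 in WT MEFs with their 99th percentile, and 6 in WT MEFs with the mean of all probe sets. Where a count moved, the cause was not tested. Over 42 named gene comparisons and 672 alternatives none changed direction, 60 lost their call and 4 gained one. The lost calls were of Hoxa2, Hoxb2 or Hoxb4 against WT, with 1 exception, Hoxa10 in TKO against Rb1KO on the probe set without a suffix, which is at background (0.34, adjusted p = 0.0926).

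Whether the replicate numbers of the labels pair the samples is not given in the sources used here. Deviations of same-numbered arrays from their group means correlated from -0.21 to 0.19. They were not compared with differently numbered arrays, so these values cannot decide it. With the replicate number as a block, TKO against WT had 14 called Hox genes, Rb1KO against WT had 5, TKO against Rb1KO had 12, TKO-Ras against TKO had 0 and TKO-Ras against WT had 14.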

Other observations

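Crabp1, which encodes another retinoic acid carrier, lay at 10.51, 11.17 and 9.69 in TKO-Ras, at 9.51, 9.82 and 9.52 in TKO, at 13.36, 12.93 and 13.32 in Rb1KO and at 6.44, 7.99 and 11.47 in WT MEFs. It was higher in Rb1KO than in WT MEFs (log2 fold change 4.57, adjusted p = 0.00423 from limma) and lower in TKO than in Rb1KO MEFs (-3.59, adjusted p = 0.0402). Without WT replicate 3 the difference of Rb1KO from WT was 5.99, and TKO against WT was 2.40 (adjusted p = 0.00227), against 0.98 (adjusted p = 0.534) with it. WT replicate 3 was the WT array with the highest Crabp1, whereas it had the lowest Hoxa2, Hoxb2, Hoxb4 and Aldh1a1. Pax3, a factor of the dorsal neural tube and muscle precursors, lay at 5.15, 5.08 and 5.10 in TKO MEFs, against widely spread values of 7.44, 5.79 and 9.33 in WT MEFs (-2.41, adjusted p = 0.0175, and -1.51 without WT replicate 3).

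A probe set of Hoxb5os, an antisense transcript of HoxB, lay at 5.01, 5.03 and 5.13 in TKO-Ras and at 5.45, 5.61 and 5.60 in TKO MEFs, a log2 fold change of -0.50 (SE 0.11, adjusted p = 0.0189), while 0 of the 9 HoxB genes measured were called in that comparison. TKO-Ras MEFs were at background there. Of the 3 probe sets that name several Hox genes, the one for Hoxb7 and Hoxb8 and the dimmer one for Hoxd3 and Hoxd4 were at background on all 12 arrays, and the brighter one for Hoxd3 and Hoxd4 was above it on all 12.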
